A study of Mus musculus with 72 samples.

Results

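The 10 genes described here write, erase or read N6-methyladenosine (m6A), a methyl mark on adenosines inside messenger RNA. They are the writers Mettl3, Mettl14 and Wtap, the erasers Fto and Alkbh5, and the readers Ythdf1, Ythdf2, Ythdf3, Ythdc1 and Ythdc2. They were chosen by symbol, and all 10 were found among the 22823 genes of the liver count table and among the 15759 genes of the table of the suprachiasmatic nucleus (SCN), the hypothalamic site of the central circadian clock. All 10 passed the filter on low counts in both tissues. By gene ID in GENCODE M21 they lie on chromosome 14 (Mettl3), 3 (Mettl14 and Ythdf3), 17 (Wtap), 8 (Fto), 11 (Alkbh5), 2 (Ythdf1), 4 (Ythdf2), 5 (Ythdc1) and 18 (Ythdc2). The tables hold RNA-seq counts of transcripts, so protein levels and m6A itself were not measured.

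The mice were of the C57BL/6J strain, per the protocols, with no transgene or targeted allele, and were 8 to 12 weeks old on arrival. For 11 days they were fed either a diet deficient in methionine and choline (MCD) or an isocaloric control diet, of which 10 days were spent under 12 h of light and 12 h of darkness and the last day in constant darkness. On that day they were killed at circadian time (CT) 0, 4, 8, 12, 16 or 20. Every combination of tissue, diet and CT (24 groups) held 3 libraries, of which numbers 1 and 2 came from males and number 3 from a female. The protocol text speaks of males, and the sample labels, which name 12 male and 6 female libraries per diet and tissue, were followed. Two-sided p-values measure the spread between these libraries. Liver RNA came from about 40 mg of the left lobe, and SCN RNA from laser-cut pieces of 23 brain sections of 25 µm each. In such bulk samples, fewer cells of a type and less RNA per cell cannot be told apart.

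Libraries held 52.6 to 86.7 M counts in liver (median 64.4 M) and 23.3 to 79.8 M in SCN (median 57.0 M). A gene of the 10 had between 225 counts (Ythdc2 in an SCN library) and 20036 counts (Fto in an SCN library). In the control males at CT8, columns of the same name carried no number, and those libraries are called a and b. Liver libraries fell into separate kinds by the level of mt-Nd6, a mitochondrial transcript. In the low kind, 8 control libraries lay between 76.5 and 119 CPM (counts divided by a library's total in M) and 13 MCD libraries between 41.6 and 96.5 CPM. For mt-Nd6 that total was not scaled, while all other CPM values use a scaled total. In the high kind, 10 control libraries lay between 522 and 925 CPM and 5 MCD libraries between 414 and 492 CPM. All 3 MCD libraries at CT16 were of the low kind. Hepatocyte markers dominated liver, where all 5 were measured, and all 8 SCN neuron markers were measured in SCN, with a summed median of 2530 CPM on control and 2597 CPM on MCD.

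The m6A writer is a nuclear complex in which METTL3 is the catalytic subunit, METTL14 its RNA-binding partner and WTAP the adaptor that places the pair in nuclear speckles. It takes the methyl group from S-adenosylmethionine (SAM), which cells make from methionine, the amino acid that the MCD diet lacks. The erasers FTO and ALKBH5 remove the mark by oxidation, and proteins with a YTH domain bind it and steer the splicing, export, translation or decay of the marked RNA. In liver, m6A on clock and lipid-metabolism transcripts is a known subject of study, and blocking methylation lengthens circadian periods.

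Per kilobase of exon, the 10 genes differed widely in level, and the order was not that of their roles. Each tissue was scaled on its own, so these levels compare genes within a tissue and not a gene between tissues. In control liver the eraser Alkbh5 and the reader Ythdf3 stood first at 14.6 ± 1.16 and 14.3 ± 1.32 CPM per kb (SD, n = 18), and they did not differ beyond their spread, since Alkbh5 was the higher in 11 of 18 libraries. Ythdf1 followed at 9.65 ± 1.10 CPM per kb. Ythdf2 at 4.51 and Wtap at 4.36 CPM per kb were not separated either (Ythdf2 higher in 10 of 18 libraries). Fto had 3.32 and Ythdc1 2.88 CPM per kb, with Fto higher in 14 of 18. The catalytic writer Mettl3 (1.94), Ythdc2 (1.21) and Mettl14 (0.97) closed the order in CPM per kb.

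In control SCN the order began with Fto at 15.6 ± 1.30 CPM per kb and Wtap at 14.0 ± 1.00 CPM per kb (SD, n = 18). Alkbh5 (13.5 CPM per kb) lay below Wtap in 9 of 18 libraries and above Ythdf1 (13.1 CPM per kb) in 12 of 18, so these neighbours overlapped. Ythdf3 had 10.3, Ythdf2 7.52 and Ythdc1 6.91 CPM per kb, with Ythdf2 above Ythdc1 in 14 of 18 libraries. Mettl14 (3.87 CPM per kb) stood above Mettl3 (2.66 CPM per kb) in 17 of 18 libraries here, the reverse of their order in liver. Ythdc2, an RNA helicase best known from meiosis, was lowest at 1.94 CPM per kb.

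**Figure D1:**
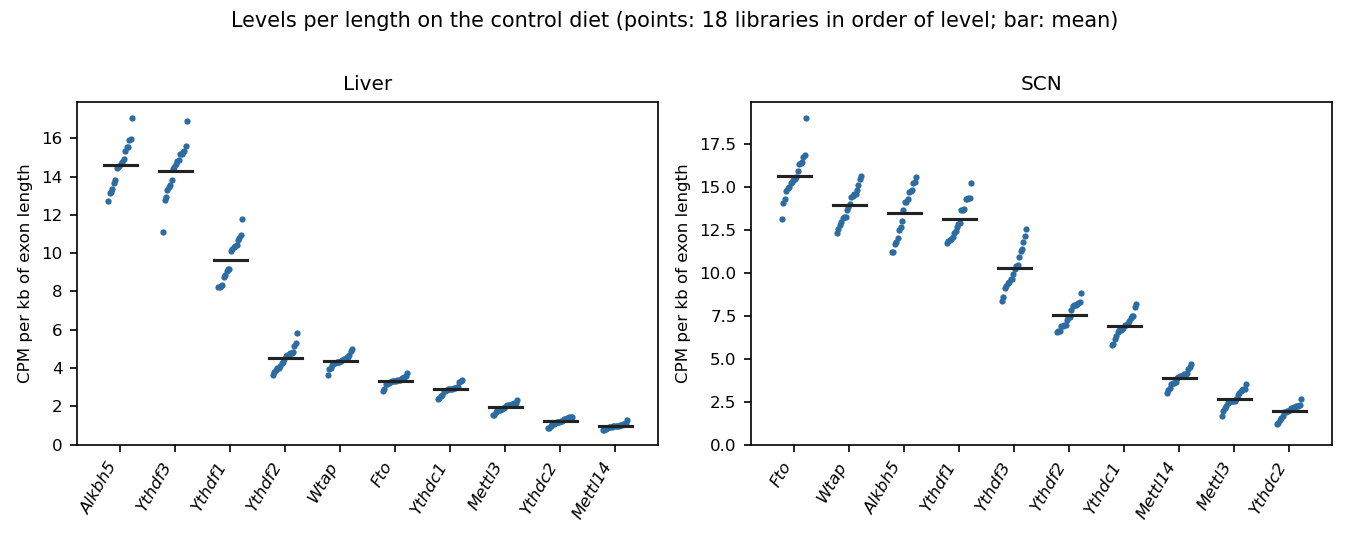
Level of each m6A gene per kilobase of exon length (CPM per kb) in the control libraries of liver (left) and SCN (right), with genes in order of their mean, 1 point per library (n = 18 per tissue, sorted by level) and the mean as a bar. Each tissue was scaled on its own, so levels compare within a panel: Alkbh5 and Ythdf3 lead in liver, and Fto leads in SCN.

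Between the tissues, the levels were compared within the control diet in 1 model of all 72 libraries, in which 90.4% of 14491 genes were called (46.3% higher and 44.1% lower in SCN) at an adjusted p under 0.05 (edgeR quasi-likelihood test, Benjamini-Hochberg adjustment). All 10 genes were among them, 4 higher and 6 lower, a share near that background. Fto was 1.30 higher in SCN on the log2 scale, Mettl14 1.10, Wtap 0.67 and Ythdc1 0.32 higher. Ythdf3 was lower by -1.46 and Alkbh5 by -1.10 on the log2 scale. Mettl3 (-0.55), Ythdf1 (-0.52), Ythdc2 (-0.32) and Ythdf2 (-0.19) were also lower with TMM scaling, but these 4 turned to 0.16, 0.18, 0.38 and 0.51 when scaled by library totals alone, which moved the median of all genes from 0.04 to 0.75. Ythdf2 also missed the threshold with relative log expression factors (edgeR adjusted p = 0.13), and both Ythdf2 (0.29) and Ythdc2 (0.13) missed it without the libraries numbered 2. Exons of Mettl3 overlap those of Tox4 on the other strand, exons of Fto overlap 2 genes on the other strand and exons of Ythdc1 overlap Gm43055 on the same strand (GENCODE M21). The sources used here do not state whether counting used the strand, and reads of these neighbours may be included.

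On the MCD diet, liver transcripts of 1 writer, 1 eraser and 2 readers were higher, averaged over the 6 times. Wtap, Alkbh5, Ythdf1 and Ythdf2 rose between 1.16- and 1.27-fold, and no gene of the 10 fell. The 4 called, all higher, stand beside 46.6% of all 20249 genes called in this comparison (25.3% higher and 21.2% lower), so the share of the 10 is near the background. The median log2 change of the 10 genes was 0.11, against 0.02 for all genes tested.

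Among the writers, Wtap lay between 22.7 and 31.0 CPM on control (median 27.1) and between 26.9 and 42.1 CPM on MCD (median 34.6). The ranges overlapped over the day, and at CT0, CT8, CT16 and CT20 every MCD library lay above every control library. Its mean rose from 27.3 ± 2.00 to 34.5 ± 4.87 CPM (SD, n = 18 each), which is 0.33 on the log2 scale (SE 0.05, adjusted p = 1.8e-06 in edgeR). Mettl3 had 7.75 to 11.9 CPM on control (median 9.95) and 8.02 to 12.3 CPM on MCD (median 10.4), and Mettl14 5.75 to 9.49 (median 7.19) and 5.89 to 9.66 CPM (median 7.42). Over the day both core subunits overlapped between the diets almost entirely. Their log2 changes were 0.08 (95% interval -0.03 to 0.18) and 0.08 (-0.05 to 0.21), neither called. At CT4 the MCD libraries of Mettl14 (6.35 to 7.33 CPM) all lay below the control ones (8.06 to 9.49 CPM). That log2 change of -0.34 was not called (edgeR adjusted p = 0.11).

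Among the erasers, Alkbh5 lay between 76.2 and 102 CPM on control (median 87.5) and between 77.2 and 119 CPM on MCD (median 97.7). Its MCD libraries stood clear of the control libraries at CT0, CT16 and CT20 and overlapped them at the other times. The mean rose from 87.6 ± 6.93 to 102 ± 12.5 CPM (SD, n = 18 each), which is 0.21 on the log2 scale (SE 0.03, adjusted p = 2.0e-05 in edgeR). Fto, whose protein also removes methyl groups next to the cap, had 36.8 to 48.7 CPM on control (median 43.5) and 35.8 to 45.5 CPM on MCD (median 42.1). Its log2 change of -0.06 (95% interval -0.13 to 0.00, edgeR adjusted p = 0.12) was not called, though it was without control CT0 number 2 or without MCD CT12 number 2 (adjusted p = 0.041 for each). Fto was the member with the lowest change, and at CT20 its MCD libraries (39.5, 38.4 and 38.9 CPM) all lay below the control ones (41.2, 45.5 and 41.4 CPM).

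Among the cytoplasmic readers, Ythdf1, linked to translation, lay between 27.3 and 39.2 CPM on control (median 32.0) and between 28.3 and 54.8 CPM on MCD (median 42.3). Its change was 0.34 on the log2 scale (SE 0.05, edgeR adjusted p = 8.8e-07). Ythdf2, which recruits the CCR4-NOT deadenylase to marked RNA, lay between 16.6 and 26.7 CPM on control (median 20.8) and between 17.1 and 38.4 CPM on MCD (median 26.7), a log2 change of 0.35 (SE 0.06, adjusted p = 4.0e-05). In both, the lowest MCD libraries sat among the control libraries and the highest far above them. Ythdf3, which acts with the other two, had a median of 78.1 CPM on control (59.6 to 90.7) and 84.7 CPM on MCD (52.9 to 99.1). Its log2 change of 0.10 (95% interval -0.01 to 0.21, edgeR adjusted p = 0.13) was not called, but without MCD CT12 number 2, its lowest library, the adjusted p was 0.014.

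The nuclear reader Ythdc1, which acts in splicing and export, had a median of 39.5 CPM on control (32.3 to 46.1) and 35.7 CPM on MCD (27.2 to 57.7). Its mean did not move (log2 change 0.00, 95% interval -0.16 to 0.16), while its spread grew from 3.81 to 11.4 CPM (SD, n = 18 each). Ythdc2 had a median of 10.8 CPM on control (7.46 to 12.9) and 11.7 CPM on MCD (8.34 to 14.2), a log2 change of 0.11 (95% interval -0.03 to 0.25), not called. At CT0 its 3 MCD libraries (14.2, 13.1 and 12.7 CPM) all lay above the 3 control libraries (9.91, 10.4 and 9.53 CPM).

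**Figure D2:**
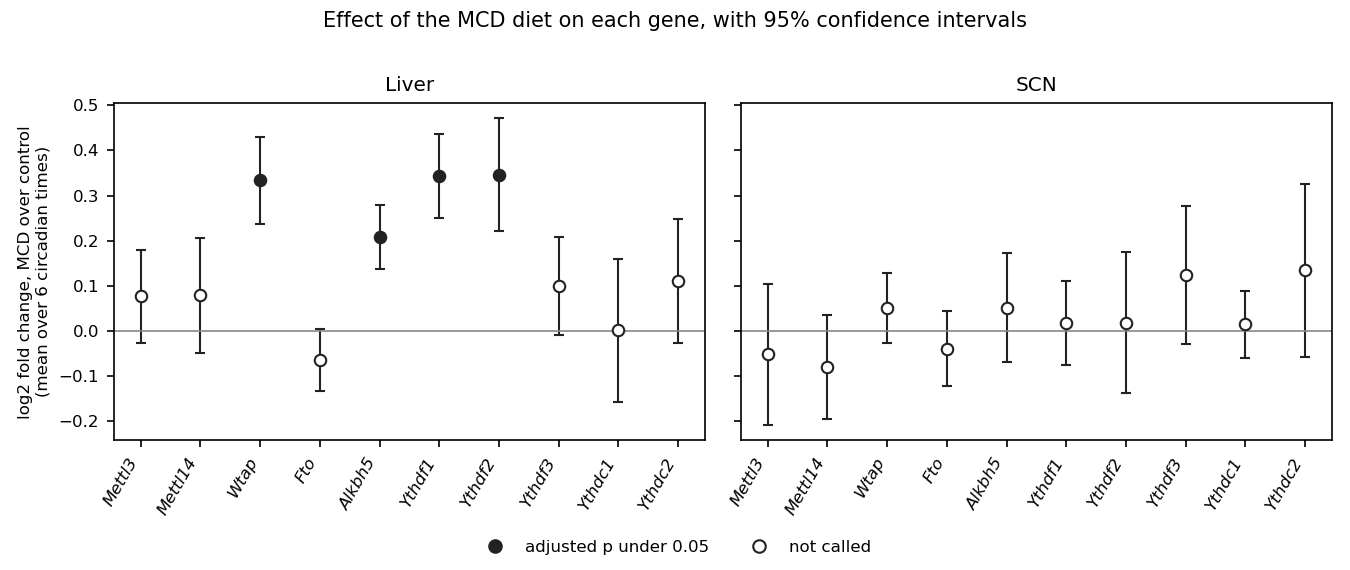
Log2 difference, MCD minus control, averaged over the 6 circadian times, for each m6A gene in liver and in SCN, with 95% intervals from the edgeR fits of 36 libraries per tissue and filled points for called genes. In liver the intervals of Wtap, Alkbh5, Ythdf1 and Ythdf2 lie above 0, and in SCN every interval of the 10 genes includes 0.

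The same 4 genes were called within the low kind of liver library, where 25.3% of all genes were (log2 changes of 0.28 for Wtap, 0.26 for Alkbh5, 0.35 for Ythdf1 and 0.32 for Ythdf2). Within the high kind, with 5 MCD libraries and 27.9% of all genes called, Wtap alone was called at 0.38 (edgeR adjusted p = 0.0088), and the others stood at 0.05 (adjusted p = 0.70), 0.26 (0.11) and 0.28 (0.095). With the kind as a term in the fit of all 36 libraries, 4 of the 10 were called for the mean diet effect, the same genes (44.1% of all genes). For the rhythm on MCD 8 of the 10 were called (29.5% of all genes). Scaled by library totals alone, the median liver gene moved to 0.27, all 10 genes were called higher, and all genes split into 10633 higher and 1540 lower calls in place of 5130 and 4296. Under that scaling Fto (0.19) and Ythdc1 (0.25) lay below the median gene, and the 4 genes named above lay between 0.46 and 0.60. Marker levels moved with the diet too, with TMM scaling, where 46.6% of all genes were called (25.3% higher and 21.2% lower). All 6 measured macrophage markers were called higher (summed median 330 CPM, range 248 to 592, on control and 434 CPM, range 327 to 727, on MCD), as were 3 of 4 endothelial markers. In contrast, 4 of 5 erythrocyte markers were called lower (summed median 273 and 143 CPM). Of 5 hepatocyte markers 3 were called lower, while their summed median was 95111 CPM on control and 100346 CPM on MCD. The part of these cells in the m6A genes' changes was not tested.

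At single circadian times in liver, of 60 pairs of gene and time, 11 were called, all higher on MCD, and 15 had an unadjusted p under 0.05. No gene of the 10 was called at CT4, where 18.2% of all genes were, or at CT8, where 1.3% were (with 1 and 0 of the 10 at an unadjusted p under 0.05 in edgeR). The calls were 2 of 10 genes at CT0 (12.6% of all genes were called, 6.57% higher), 1 at CT12 (15.2%, 8.08% higher), 4 at CT16 (12.5%, 6.52% higher) and 4 at CT20 (11.3%, 5.7% higher). Where libraries of the diets do not overlap at a time, this describes those libraries only. The share of all genes without overlap is not given here.

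At CT16 the median log2 difference of the 10 genes was 0.31, against 0.26 at CT0 and 0.18 at CT20. Ythdf2 read 20.5, 23.5 and 21.3 CPM in control libraries and 35.6, 32.4 and 38.4 CPM in MCD libraries, a difference of 0.71 on the log2 scale (SE 0.15, adjusted p = 0.0027 in edgeR). Ythdf1 had 30.0, 33.5 and 29.4 CPM against 46.8, 47.3 and 49.0 CPM, a log2 change of 0.63 (SE 0.11, adjusted p = 0.00073). For both readers every MCD library lay above every control library. Wtap read 27.2, 28.0 and 26.5 CPM in control and 39.8, 38.6 and 39.3 CPM in MCD libraries (log2 change 0.53, edgeR adjusted p = 0.0034), and Alkbh5 had 87.0, 81.8 and 86.5 against 117, 116 and 116 CPM (0.45, adjusted p = 0.0011). These did not overlap either, and no single library left out ended any of the 4 calls at CT16. Leaving out all libraries of 1 number did. Without number 1 all 4 were lost (edgeR adjusted p = 0.12 for Wtap, 0.054 for Alkbh5, 0.054 for Ythdf1 and 0.13 for Ythdf2), without number 2 Alkbh5 (0.090) and without number 3 Wtap (0.060). The log2 changes without number 1 were 0.51, 0.46, 0.62 and 0.67, and the calls over all genes at CT16 fell from 2532 to 323, 535 and 961 without number 1, 2 and 3. Ythdf3 and Ythdc1 had no overlap at CT16 (77.8 to 83.7 against 92.5 to 99.1 CPM, and 40.3 to 46.1 against 47.3 to 57.7 CPM) but did not pass the test (edgeR adjusted p = 0.19 and 0.24).

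At CT20 the same 4 genes were called. Ythdf1 read 34.6, 35.4 and 27.7 CPM in control and 48.2, 54.8 and 52.3 CPM in MCD libraries (log2 change 0.67, edgeR adjusted p = 0.00037), and Alkbh5 had 93.0, 89.3 and 78.8 against 107, 119 and 118 CPM (0.40, adjusted p = 0.0033). Wtap had 26.1, 22.7 and 31.0 against 35.5, 42.1 and 34.7 CPM (log2 change 0.49, adjusted p = 0.0063), and Ythdf2 21.4, 22.2 and 22.0 against 30.3, 38.4 and 25.0 CPM (0.51, adjusted p = 0.027). Every MCD library again lay above every control library. The call of Wtap was lost without control CT20 number 2 (edgeR adjusted p = 0.058), and that of Ythdf2 without control CT20 number 1 (0.092) or 2 (0.080) or MCD CT20 number 1 (0.058) or 2 (0.19). Of the 11 pairs of gene and time called, Ythdf1 at CT20 alone stayed called whichever number's libraries were all left out.

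At CT0, Ythdf1 read 30.4, 34.4 and 27.5 CPM in control and 45.6, 48.4 and 33.2 CPM in MCD libraries (log2 change 0.46, edgeR adjusted p = 0.0078), and Alkbh5 had 88.4, 91.9 and 76.2 against 107, 108 and 95.2 CPM (0.28, adjusted p = 0.031). The Ythdf1 ranges overlapped through the female MCD library, and the call was lost without MCD CT0 number 1 (0.056) or 2 (0.058). That of Alkbh5 was lost without any of control CT0 number 1 or 3, MCD CT0 number 1 or 2, MCD CT12 number 1 or MCD CT16 number 1 or 2. At CT12, Wtap read 24.6, 26.9 and 25.0 CPM in control and 39.6, 26.9 and 37.2 CPM in MCD libraries (log2 change 0.44, adjusted p = 0.011). MCD number 2 sat among the control libraries, and the call was lost without control CT12 number 1 (0.056) or MCD CT12 number 1 (0.062).

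**Figure D3:**
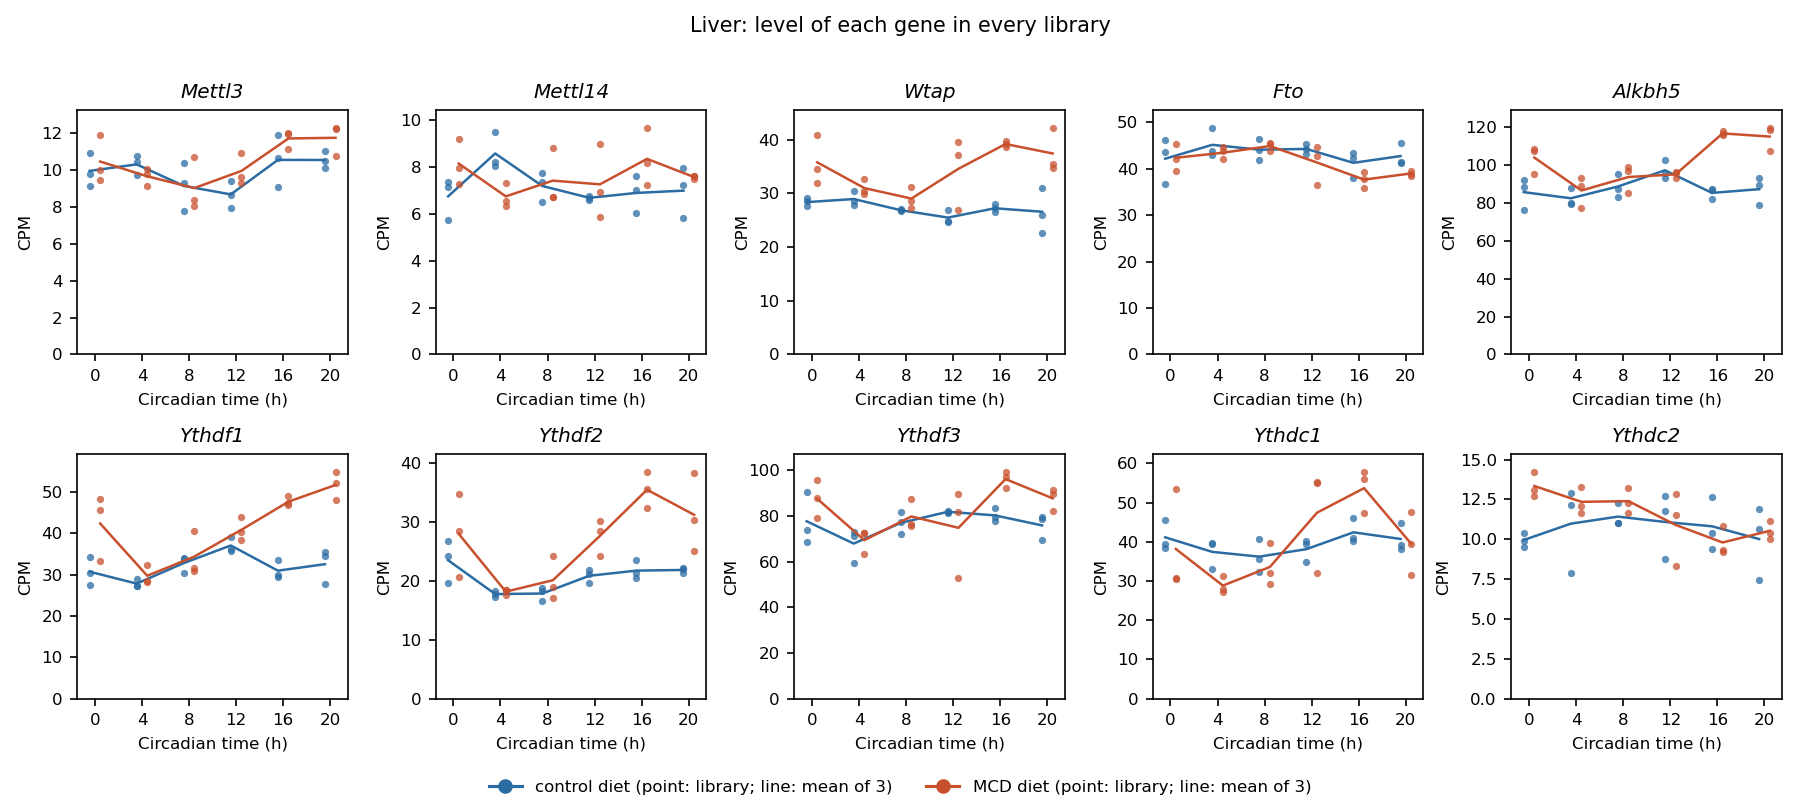
Level of each m6A gene in liver (CPM) against circadian time (h), with 1 point per library (3 per diet and time) and lines through the means of the control and MCD groups. The control lines of Ythdf1, Ythdf2, Alkbh5 and Wtap stay flatter, and the MCD lines separate from them at CT16 and CT20.

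Over the day, 24 h rhythms of the m6A genes were called in liver on MCD and not on control. On control 0 of the 10 passed the edgeR test (2 at an unadjusted p under 0.05, and 0 also with DESeq2 and limma-voom), where 17.8% of all genes were called rhythmic. On MCD 8 of the 10 passed, where 28.2% of all genes did. The difference between the diets was called for 2 of the 10, Ythdf1 and Alkbh5, where 4.87% of all genes were called, so for the other members a difference in rhythm is not shown. One cycle was sampled, and the clock genes measured in liver were called rhythmic in 13 of 13 cases on both diets.

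Ythdf1 had its lowest MCD mean at CT4 and its highest at CT20 (29.8 and 51.8 CPM), against 27.9 CPM at CT4 and 37.1 CPM at CT12 on control. Its fitted range from trough to peak was 0.74 (SE 0.11) on the log2 scale on MCD, with the peak at CT18.0 (SE 0.58 h), and 0.25 (SE 0.09) on control, with the peak at CT13.2 (SE 1.38 h). The rhythm on MCD had an edgeR adjusted p of 6.0e-06 and the difference 0.0070, a call that no single library left out ended. Alkbh5 ran from 86.4 CPM at CT4 to 116 CPM at CT16 on MCD, a fitted range of 0.42 (SE 0.07) peaking at CT18.3 (SE 0.62 h), and had a range of 0.15 (SE 0.06) peaking at CT12.4 (SE 1.66 h) on control. The rhythm on MCD had an adjusted p of 0.00021 and the difference 0.022, which rose to 0.059, 0.053 and 0.054 without MCD CT8 number 2, CT20 number 2 or CT20 number 3. Without all libraries of number 1, 2 or 3, neither difference was called, and the calls over all genes fell from 986 to 5, 4 and 537. Within either kind of library neither difference was called (Ythdf1 0.12 and 0.58, Alkbh5 0.28 and 0.58 for the low and the high kind), where 10 and 0 of all genes were. These losses run over all genes and are not particular to the pair. With all 36 libraries and the kind as a term of the model, both differences were called (edgeR adjusted p = 0.0077 for Ythdf1 and 0.023 for Alkbh5), as were 1109 of all genes.

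Ythdf2 had a fitted range of 0.92 (SE 0.16) on the log2 scale on MCD, with the peak at CT17.5 (SE 0.64 h), against 0.35 (SE 0.09) on control. Its mean went from 18.2 CPM at CT4 to 35.5 CPM at CT16 on MCD. The rhythm on MCD had an edgeR adjusted p of 1.2e-05, and the difference between the diets missed the threshold (0.070). Ythdc1 had a range of 0.78 (SE 0.20) on MCD, peaking earlier at CT15.7 (SE 1.00 h), and 0.22 (SE 0.09) on control. The MCD ranges of Ythdf2 and Ythdc1 overlap within their SE, and without number 2 that of Ythdc1 was 1.04 and that of Ythdf2 0.90. Ythdc1 had 31.3, 27.2 and 28.0 CPM at CT4 and 57.7, 47.3 and 56.1 CPM at CT16 on MCD, against 39.5, 39.7 and 33.0 and 46.1, 40.9 and 40.3 CPM on control. Its MCD libraries thus lay below all control libraries at CT4 and above them at CT16, and the rhythm was called on MCD (edgeR adjusted p = 0.0014) while the difference was not (0.14). At CT12 its MCD libraries read 55.2, 32.1 and 55.0 CPM and at CT0 30.5, 53.4 and 30.7 CPM, so 1 library stood apart from the other two at each of these times.

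Wtap had a range of 0.41 (SE 0.10) on MCD, peaking at CT18.5 (SE 0.96 h), and of 0.14 (SE 0.07) on control. Its rhythm on MCD was called (edgeR adjusted p = 0.0050), and its difference missed the threshold (0.073). Mettl3 rose on MCD to CT18.8 (SE 0.86 h) with a range of 0.39 (SE 0.09), called at an adjusted p of 0.013 and lost without MCD CT8 number 1 (0.053) or 2 (0.059), within the low kind of library (0.13) and under library totals alone (0.17). Ythdf3 peaked at CT18.7 (SE 1.5 h) with a range of 0.36 (SE 0.14) and an adjusted p of 0.039. That call was lost without any of 11 MCD libraries, namely CT0 number 1, CT4 number 1 or 2, CT8 number 2 or 3, and any library of CT16 or CT20. The call of Ythdf3 was also lost within the low kind of library (edgeR adjusted p = 0.21), where 20.5% of all genes were called. Fto had its MCD peak in the first part of the day, at CT5.57 (SE 0.83 h) and a range of 0.24 (SE 0.05), called at an adjusted p of 0.026 and lost without MCD CT4 number 3 (0.058) or CT16 number 3 (0.062) and under library totals alone (0.071). That scaling left 6 of the 8 rhythms called, where 23.7% of all genes were called. Leaving out all libraries of number 1, 2 or 3 gave 3, 4 or 6 calls on MCD, where 12%, 13.2% and 18% of all genes were called, and without number 3 Ythdc2 was among them (edgeR adjusted p = 0.019). Of the 8 genes, Ythdf1 and Ythdf2 stayed called in all of these fits. Alkbh5 was lost without number 2 (edgeR adjusted p = 0.052), Wtap without number 1 (0.056) and Ythdc1 without number 1 (0.068) or 3 (0.065). Mettl3 was lost without number 1 (0.25) or 2 (0.30), and Fto and Ythdf3 whichever number was left out.

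Mettl14 (edgeR adjusted p = 0.47) and Ythdc2 (0.076) were not called rhythmic on MCD, though Ythdc2 was by DESeq2 (adjusted p = 0.037), by limma-voom (0.042) and by edgeR within the low kind (0.030). DESeq2 and limma-voom thus called 9 of the 10, where 32.4% and 30.1% of all genes were called. Ythdc2 had a fitted peak at CT3.57 (SE 1.01 h) on MCD, and it was called without control CT4 number 3 (0.050), MCD CT12 number 3 (0.017) or MCD CT16 number 3 (0.032). The difference in rhythm was called for more of the 10 genes by other settings. DESeq2 called it for Wtap (adjusted p = 0.031) and Ythdf2 (0.032) as well, and scaling by library totals alone did for Ythdf2 (0.049 in edgeR). It was called for Wtap without control CT20 number 3 (0.027), MCD CT0 number 2 (0.048) or MCD CT12 number 2 (0.021), for Ythdf2 without MCD CT0 number 2 (0.036), CT8 number 1 (0.045) or CT20 number 3 (0.046), and for Ythdc1 without MCD CT0 number 2 (0.028) or CT12 number 2 (0.037). Within the high kind of library, which held 5 MCD libraries and none at CT16, no rhythm of the 10 was called on MCD (edgeR adjusted p between 0.17 and 0.77 for the 8 genes). Of all genes, 0.274% were called there, so nothing particular to the 10 is read from it.

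**Figure D4:**
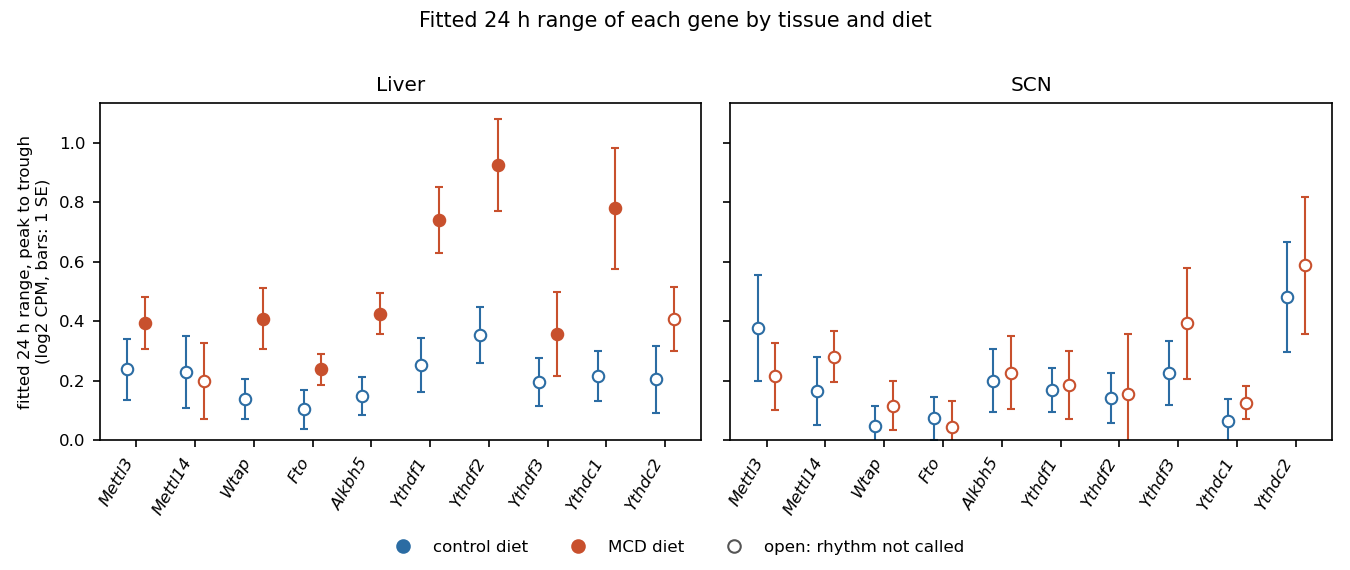
Fitted 24 h range from trough to peak (log2 scale, with SE bars) of each m6A gene in liver and SCN on control and MCD, from cosinor fits of 18 libraries each, with filled points where the rhythm was called. In liver the difference in rhythm between the diets was called for Ythdf1 and Alkbh5, where 4.87% of all genes were called. In SCN the SE bars of Ythdc2 and Mettl3 overlap on control.

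The stretch upstream of the start site is shown for Ythdf1 and Alkbh5, the genes whose rhythm differed between the diets in liver. The windows hold bases 250 to 21 before the annotated start (RefSeq, build GRCm38.p6, at chr2:180920957-180921186 on the minus strand for Ythdf1 and chr11:60537433-60537662 on the plus strand for Alkbh5), are written 5′ to 3′ along the gene, and an E-box, where there is one, is in capitals.
Ythdf1: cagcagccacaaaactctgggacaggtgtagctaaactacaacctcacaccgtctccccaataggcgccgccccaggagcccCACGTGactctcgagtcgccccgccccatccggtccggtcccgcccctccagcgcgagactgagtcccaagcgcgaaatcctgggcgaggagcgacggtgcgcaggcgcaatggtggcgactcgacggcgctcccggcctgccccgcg
Alkbh5: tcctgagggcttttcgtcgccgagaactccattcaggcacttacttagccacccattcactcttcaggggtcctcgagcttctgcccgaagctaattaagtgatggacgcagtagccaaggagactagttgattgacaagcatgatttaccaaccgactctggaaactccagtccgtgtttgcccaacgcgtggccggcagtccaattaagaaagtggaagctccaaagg
Searched on both strands were the E-box CACGTG, which the clock factors CLOCK and BMAL1 can bind, its variant CACGTT, the D-box TTANGTAA, the ROR element TAGGTCA and the amino acid response element TGATGNAA. The Ythdf1 window held 1 E-box, 168 bases before the start, and Alkbh5 held none of the 5 motifs. Of 32851 windows of the same length, 5.35% held the E-box, 3.52% its variant, 1.97% the D-box, 2.07% the ROR element and 3.23% the amino acid response element. The table held windows for 7 of the 10 genes, and those of Mettl3, Wtap, Fto, Ythdf2 and Ythdc1 held none of these letters. A match describes these letters only. GC content was 68.7% for Ythdf1 and 51.7% for Alkbh5.

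In SCN, no diet effect on the m6A genes was detected. Averaged over the day, 0 of the 10 were called, where 0.0635% of 15759 genes were (edgeR, 0 of the 10 at an unadjusted p under 0.05, and 0 also with DESeq2 and limma-voom). The log2 changes ran from -0.08 for Mettl14 to 0.13 for Ythdc2. All 10 intervals lay within -0.21 to 0.33, so changes beyond 0.866- or 1.25-fold were outside them. A missed threshold does not show that the diets were alike.

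The writers had means of 13.5 and 13.0 CPM (Mettl3), 28.7 and 27.3 CPM (Mettl14) and 87.2 and 90.4 CPM (Wtap) on control and MCD. Fto had 204 and 198 CPM and Alkbh5 80.7 and 83.7 CPM. The readers had 43.5 and 44.2 CPM (Ythdf1), 34.4 and 35.0 CPM (Ythdf2), 55.0 and 60.2 CPM (Ythdf3), 94.3 and 95.3 CPM (Ythdc1) and 17.2 and 18.9 CPM (Ythdc2). All 10 overlapped between the diets. At single times 0 of 60 pairs were called in edgeR (2 at an unadjusted p under 0.05), where between 0% (CT8 and CT12) and 0.0444% (CT4) of all genes were called and 0.00635% at each of CT0, CT16 and CT20. The groups stood clear of each other, with no call, for Mettl3 at CT20 (12.2 to 12.5 CPM on MCD, below 12.6 to 17.9 CPM), Ythdf1 at CT4 (47.2 to 49.7 CPM on MCD, above 39.2 to 42.5 CPM) and Ythdc2 at CT8 (22.5 to 23.4 CPM on MCD, above 16.6 to 20.7 CPM). The share of all genes whose groups stood clear is not given here, so nothing particular to these genes is read from it.

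No m6A gene was called rhythmic in SCN on control (15.1% of all genes were) or on MCD (16.1%), with 1 of the 10 at an unadjusted p under 0.05 on each diet, and none differed in rhythm between the diets (0.0127% of all genes, and 0 of the 10 at an unadjusted p under 0.05 in edgeR). DESeq2 and limma-voom also called 0 of the 10 for these rhythms, their differences and the single times. Ythdc2 had fitted ranges of 0.48 (SE 0.18) on control and 0.59 (SE 0.23) on MCD on the log2 scale, both peaking near CT11 (CT11.1 and CT11.0). Without number 3, Mettl3 had a range of 0.72 on control, against 0.60 for Ythdc2, and its rhythm was called (edgeR adjusted p = 0.0079). The rhythm of Ythdc2 on MCD was called without MCD CT4 number 1 (0.034) or 3 (0.048). One library stood apart: SCN MCD CT20 number 1 had 65.3 CPM of Ythdf2 and 90.3 CPM of Ythdf3, where the other two of its group had 28.9 and 30.5 CPM and 43.1 and 46.8 CPM. Without it, the rhythm of Ythdf3 on MCD was called (edgeR adjusted p = 0.0022, against 0.22 with it). Of the clock genes of this tissue, 12 of 13 were called rhythmic on control and 13 of 13 on MCD. This does not show that ranges of the size fitted for the m6A genes would be found. In simulated SCN counts with a rhythm on MCD only, 28.5% were found at a range of 0.5 on the log2 scale and 72.5% at 1.

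**Figure D5:**
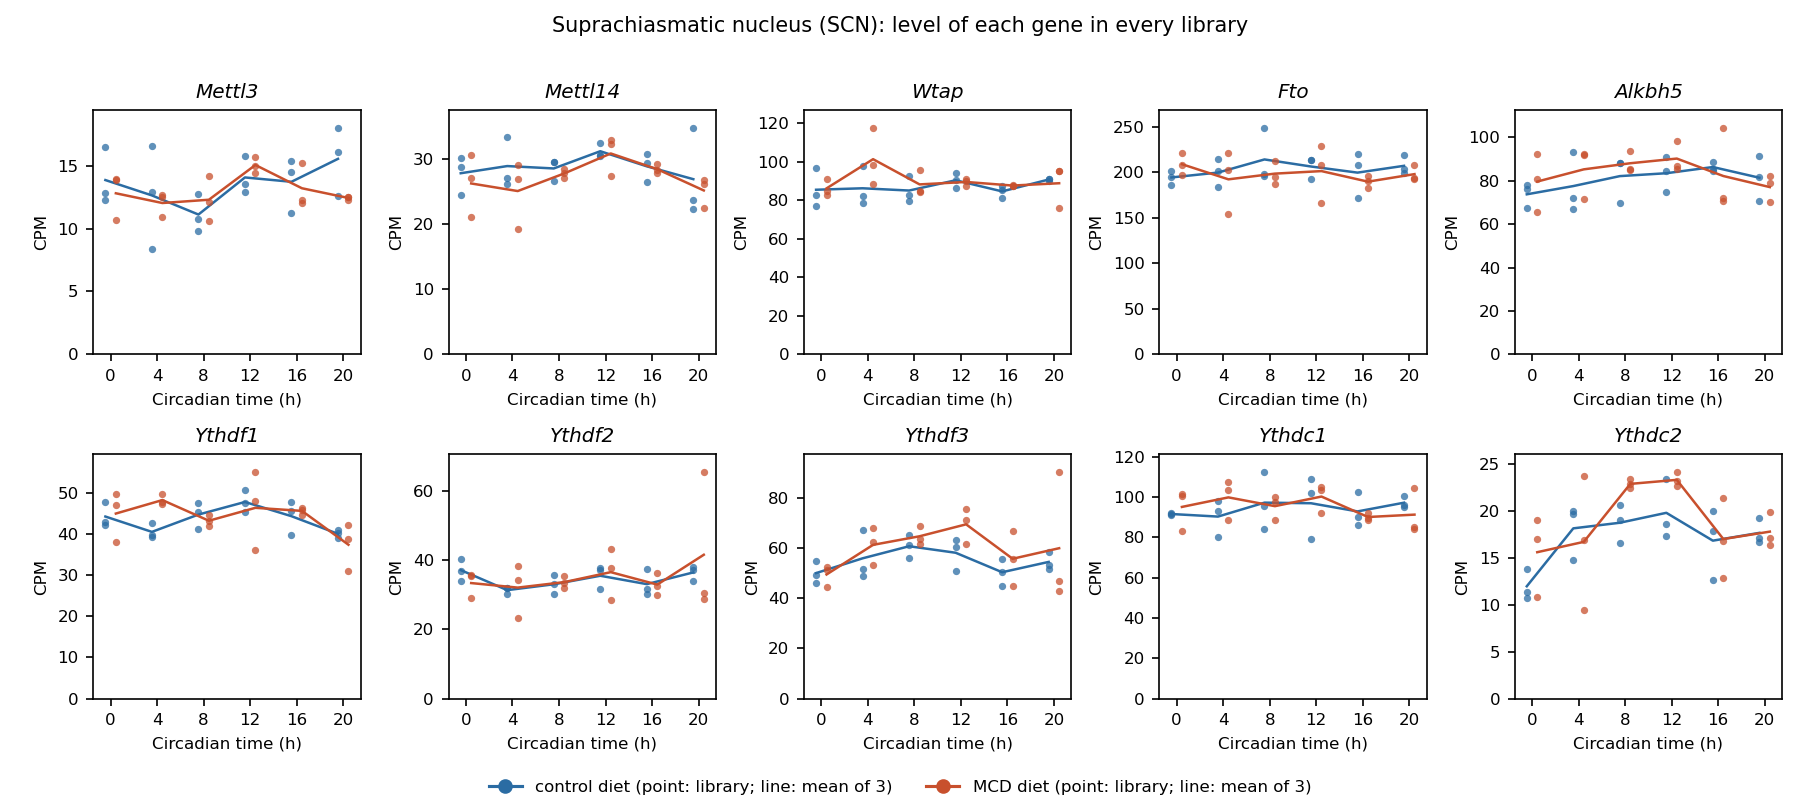
Level of each m6A gene in SCN (CPM) against circadian time (h), with 1 point per library (3 per diet and time) and lines through the group means. Control and MCD points overlap at nearly all times, and 1 MCD library at CT20 stands high for Ythdf2 and Ythdf3.

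Whether the diet effect differed between the tissues was tested in the model of 72 libraries, where 34.7% of all genes were called (18.9% with a lower effect in SCN). It did for 3 of the 10 genes, all with a smaller effect in SCN. The difference, SCN minus liver, was -0.28 for Wtap (edgeR adjusted p = 0.00012), -0.32 for Ythdf1 (6.3e-05) and -0.32 for Ythdf2 (0.0096) on the log2 scale. That of Ythdf2 was not called without the libraries numbered 2 or 3. For Alkbh5 the difference of -0.15 missed the threshold (0.091), so its rise in liver is not shown to be absent from SCN.

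Between the sexes, no gene of the 10 differed in liver, where 9.44% of all genes did (edgeR, 0 of the 10 at an unadjusted p under 0.05, and 0 with DESeq2 and limma-voom). In SCN 2 were called lower in females, where 9.89% of all genes were called and 4.98% were lower. Ythdc1 was lower by -0.18 (SE 0.04, adjusted p = 0.0056) and Fto by -0.14 (adjusted p = 0.046) on the log2 scale. The Fto call was lost without any of 22 single libraries of the 36 and without all libraries of number 1 (edgeR adjusted p = 0.32) or 2 (0.12), and that of Ythdc1 without number 1 (0.21). The diet effect did not differ between the sexes for any of the 10 in liver (1.77% of all genes, 1 of the 10 at an unadjusted p under 0.05) or SCN (0% of all genes, 0 of the 10), and DESeq2 and limma-voom also called 0 of the 10 there. The gene past the unadjusted threshold in liver was Ythdc2, whose diet effect was 0.37 higher in females on the log2 scale (edgeR adjusted p = 0.16).

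Counts per exon bin were tested for a change in the use of parts of a transcript. No m6A gene was called in liver (3.79% of 14108 genes were) or in SCN (0.0458% of 15275 genes), with 0 of the 10 at an unadjusted p under 0.05 in either tissue and 0 also by the gene-level F test. Between 5 bins (Alkbh5) and 35 bins (Mettl3) were tested per gene. The lowest gene-level value was that of Ythdf2 in liver (adjusted Simes p = 0.74, edgeR), where bin 9 took 4.14% ± 0.87 of the gene's bin counts on control (SD, n = 16) and 5.41% ± 0.82 on MCD (n = 18). The spread between SCN libraries was wide at the level of bins (biological coefficient of variation 0.59, against 0.25 in liver), and a missed threshold does not show equal usage.

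Further genes of the pathway were counted in liver for the mean diet effect, where 46.6% of all genes were called (25.3% higher and 21.2% lower). Of 5 measured further writer subunits, 2 rose (Rbm15b by 0.31 and Cbll1, an E3 ligase also called HAKAI, by 0.20 on the log2 scale) and none fell. Of 29 other RNA methyltransferases and demethylases, 11 rose and 6 fell, among them the tRNA methyltransferase subunits Trmt61a (0.85) and Mettl1 (0.61), the cap methyltransferase Cmtr2 (0.52), and Mettl8 (-0.43) and Mettl5 (-0.42). Their median log2 change was 0.04, near the 0.02 of all genes. Nothing particular to these lists is read from these counts.

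Against the same shares over all liver genes (46.6% called, 25.3% higher and 21.2% lower), of 13 other proteins that read m6A or m6A-dependent structure, 2 rose (Eif3a 0.23 and Fmr1 0.14) and 4 fell (Rbmx -0.63, Hnrnpa2b1 -0.22, Fxr1 -0.21 and Hnrnpc -0.11). Of 10 RNA decay factors, 2 rose and 5 fell, including Rida (-0.50), whose protein bridges YTHDF2 to RNase P/MRP, and the exonuclease Xrn1 (-0.26). The 6 calls among the 13 readers are at the background share.

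In the supply and use of SAM, 1 of 11 genes rose and 4 fell, a share near the 46.6% called over all genes. Mat2a, the SAM synthetase that is itself controlled through m6A by METTL16, went from 71.0 ± 13.7 to 225 ± 56.5 CPM (SD, n = 18 each), a log2 change of 1.65 (edgeR adjusted p = 5.2e-15). Gnmt, which spends SAM on glycine in hepatocytes, changed by -1.07, and Ahcy, which clears the product of methylation, by -0.60. Mat2a was also the 1 gene of these lists called in SCN, at 0.31 on the log2 scale (edgeR adjusted p = 0.015), and its rhythm differed between the diets there (adjusted p = 2.5e-07).

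Across the 36 liver libraries, 34 of the 45 pairs among the 10 genes had a Pearson r of log2 CPM above 0, with a median of 0.33. The points share diet, time and depth, and genes are not independent, so this is a description. The highest was 0.90 for Alkbh5 with Ythdf1, followed by 0.85 for Ythdf1 with Ythdf2 and 0.77 for Wtap with Ythdf2. Within the diets, these were 0.76 on control and 0.89 on MCD, 0.33 and 0.91, and 0.02 and 0.86 (18 libraries each). Wtap with Ythdf1 had -0.67 on control and 0.75 on MCD. The lowest pairs all held Fto, with -0.70 for Ythdf2 (-0.63 on control and -0.72 on MCD) and -0.62 for Wtap (-0.31 and -0.77). In SCN 34 of the 45 pairs were above 0, with a median of 0.28, a highest of 0.64 for Alkbh5 with Ythdc2 and a lowest of -0.49 for Wtap with Fto.

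Over all genes tested, those most like Ythdf2 in liver were Phospho2 (r = 0.93), Trmt12 (0.90) and Rpp25l (0.89). Those most like Ythdf1 were Kti12 (0.91), Dhx8 (0.91) and Alkbh5 (0.90), while for Alkbh5 they were Ythdf1 (0.90), Crk (0.86) and Scyl2 (0.85). In SCN the gene most like Ythdc2 was Ranbp2 (0.87) and that most like Ythdf3 was Wdr26 (0.81), each over 36 libraries.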

How the data were processed

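Transcripts were counted in 36 liver and 36 SCN libraries made from polyadenylated RNA with a stranded kit, per the labels' protocols. The authors deposited raw whole-number counts per gene, 1 table per tissue, and counts per exon bin, 1 file per library, per the file headers. The submitters' processing notes name GRCm39, Trimmomatic, HISAT2, StringTie and DESeq2, with no roles; the annotation and the strand setting were not given there. Exon-bin files of 2 liver libraries (control CT0 numbers 1 and 2) end early and were not used. Rows of the gene tables all name genes.

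Counts were tested with edgeR 4.0.16 in R 4.3.3 (quasi-likelihood F test, TMM, filterByExpr with a minimum count of 10, robust dispersions). Each tissue's model held 12 groups of diet and CT and a term for sex, and the model of 72 libraries held 24 groups and sex within tissue, with libraries taken as independent. Calls used an adjusted p under 0.05 (Benjamini-Hochberg over all genes). The rhythm test took the cosine and sine terms (24 h) of the 6 time means, and ranges and peaks came from cosinor fits of log2 CPM (prior count 2). CPM values are TMM-scaled, except those of mt-Nd6, which use library totals. Exon usage was tested with diffSpliceDGE of edgeR, with CT and sex as covariates. Exon lengths and overlaps came from GENCODE M21 (GRCm38), another build than that of the counts, matched by gene ID. The tests of the mean diet effect, of rhythm, of exon usage and of the diet effect between tissues were tested on simulated data. In edgeR, mean diet effects of 0.5 on the log2 scale were found for 89.5% of changed genes in liver and 78% in SCN. Differences of 0.5 in diet effect between the tissues were found for 73.5%. A liver rhythm on MCD only was found for 32.5% at a range of 0.5 and 82.5% at 1. Its difference between the diets was found for 0% and 62.5%. A change of 1 in 1 exon bin was found for 100% in liver and 1% in SCN.

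All 10 genes are named in every comparison, and genes of the pathway lists are named among the 6 with the smallest p per list. The genes most like a member are given for those with the widest fitted ranges, except that those of Ythdc1 in liver are not reported here. Members and lists were chosen with earlier results of these data known. No libraries of a group matched within sampling noise (chi-square per degree of freedom at least 24.2 in liver and 24.1 in SCN). Alternatives were other scalings, prior counts and filters, DESeq2 1.42.0, limma-voom (limma 3.58.1), a replicate block, the kind of liver library, and leaving out libraries.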

Additional observations from a re-analysis of the deposited data

Results flagged for a closer look

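The diet effect of 3 of the 10 genes differed between the tissues by the test of the difference itself, with SCN minus liver at -0.28 for Wtap, -0.322 for Ythdf1 and -0.324 for Ythdf2 on the log2 scale. In liver these genes rose on MCD, while in SCN their changes were 0.05, 0.02 and 0.02, none called. Over all genes, 34.7% were called in this test, and the call of Ythdf2 was lost without the libraries numbered 2 (edgeR adjusted p = 0.069) or 3 (0.058).

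The diet effect of 2 of the 10 genes differed between circadian times in liver, with an edgeR adjusted p of the rhythm difference of 0.0217 for Alkbh5 and 0.00702 for Ythdf1. Over all genes, 4.87% were called. Both calls were lost without all libraries of 1 number and within either kind of library (adjusted p between 0.11 and 0.58 for Alkbh5 and between 0.079 and 0.58 for Ythdf1). Over all genes the calls fell from 986 to 5, 4 and 537 without number 1, 2 and 3, and to 10 and 0 within the low and the high kind, so the losses are not particular to these genes. With all 36 libraries and the kind as a term of the model, both were called (edgeR adjusted p = 0.023 for Alkbh5 and 0.0077 for Ythdf1).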

How the results depend on the processing

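The mean liver diet effect stayed called for Wtap under 49 of 49 alternatives and for Alkbh5, Ythdf1 and Ythdf2 under 48 of 49. The 10 genes' values and alternatives made 11410 comparisons. Of these, 11210 stayed on the same side of the threshold, 67 passed it anew and 127 no longer passed it. The other 6 changed sign with a call before or after the change, and 4 of them had been called before. Sign changes of values called neither before nor after are counted among the 11210. Each gene of the 10 had at least 225 counts in every library; fits at other depths were not run.

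Scaled by library totals alone, 10 genes were called for the liver diet effect (in place of 4), where 60.1% of all genes were. At single times 31 pairs were called (in place of 11), where 1.37% (CT8) to 32% (CT12) of all genes were. For SCN minus liver 6 were called (in place of 3), where 42.4% of all genes were. The reversed values were 0.19 for Fto in liver, 0.33 for Alkbh5 in liver at CT12, and 0.16, 0.18, 0.51 and 0.38 for the level of Mettl3, Ythdf1, Ythdf2 and Ythdc2 in SCN minus liver. Within the high kind of library, 1 liver diet effect, 0 rhythms on MCD and 0 rhythm differences were called (27.9%, 0.274% and 0% of all genes), and within the low kind 0 rhythm differences (0.0552% of all genes). With the kind as a term and all 36 libraries kept, the counts were 4, 8 and 2, as without it (44.1%, 29.5% and 5.48% of all genes). DESeq2 called 4 rhythm differences (2016 in place of 986 over all liver genes) and, over all SCN genes, 48 diet effects in place of 10. The cause was not tested, and the kinds hold fewer libraries.

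Leaving out 1 library or 1 replicate number gave 2 to 13 pairs at single times, 3 to 9 rhythms on MCD and 0 to 5 rhythm differences in liver. In SCN it gave 0 to 1 rhythms on control, 0 to 1 on MCD and 0 to 3 sex effects.

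After the fit of group and sex, control and MCD libraries of the same number and CT were compared over all genes. Their r lay between -0.21 and 0.29 in liver (over 0.1 in 5 of 16 pairs) and between -0.17 and 0.25 in SCN (4 of 16). Other links between libraries of 1 number were not tested. With the replicate block, on the numbered libraries, 1 rhythm difference was called in liver, as without the block on these libraries (1), with that of Alkbh5 lost in both (adjusted p = 0.063 and 0.053), and without the block the sex effect in SCN was also called for 1 gene. The block also ended the rhythm call of Ythdf3 on MCD (edgeR adjusted p = 0.052) and the tissue-level call of Ythdc2 (-0.27, adjusted p = 0.071). That of Ythdf2 was lost on these libraries both with the block (-0.08, adjusted p = 0.51) and with no block (-0.19, adjusted p = 0.072).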
